A study of Homo sapiens with 12 samples.

Results

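The genes described here are 45 heat shock proteins and chaperones. They were chosen by symbol from the count tables of the series, which list 63677 genes, and all 45 were found and passed the filter on low counts. They cover the cytosolic HSP70 and HSP90 families with their cochaperones, the J proteins, the CCT ring, the chaperones of mitochondria and of the endoplasmic reticulum (ER), the small heat shock protein HSPB1 and the heat shock transcription factors. Their transcripts were measured in SET-2, an established human acute myeloid leukemia line, in 4 groups of 3 libraries. WT cells carry wild-type LSD1, the histone demethylase encoded by KDM1A. The insR cells carry LSD1 with an arginine inserted between leucine 659 and asparagine 660 (Leu659_Asn660insArg), a form named drug-resistant in the labels. Each kind of cell received either the solvent DMSO (0.1% v/v) or the irreversible LSD1 inhibitor GSK-LSD1 (250 nM) for 48 h. The labels do not say how the insR cells were made or whether they are 1 clone, so the inserted residue and other differences between the lines cannot be told apart. They also leave unsaid whether the replicates grew as separate cultures, and the p-values therefore reflect spread among libraries that may be technical.

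Chaperones bind unfolded or partly folded proteins and release them in cycles driven by ATP. J proteins bring clients to HSP70 and stimulate its ATPase, exchange factors such as BAG proteins release the nucleotide, and HSP90 acts later, with cochaperones, on kinases and receptors. The CCT ring folds actin, tubulin and other proteins inside a closed chamber, and HSPD1 with its lid HSPE1 does the same in the mitochondrial matrix. Under heat or other protein damage the transcription factor HSF1 binds heat shock elements, which are repeats of the unit GAA in alternating orientation, and turns on genes such as HSPA1A, HSPA1B, DNAJB1 and HSPB1. ER chaperones are induced by the unfolded protein response, in part through ER stress elements.

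Each library held 4837096 to 10141155 reads in genes, and levels are given as CPM, a gene's reads relative to the library total after scaling by the trimmed mean of M values (TMM). The 3 reads that a count of 0 leaves possible were worth 0.296 to 0.62 CPM. Reads came from transcript ends, so levels of different genes are not compared. Where libraries are said to overlap or not between groups, the share of all genes tested that did so was not counted. Reads outside genes were 18.4% to 19.5% of uniquely aligned reads in treated WT libraries and 16.3% to 16.7% in WT DMSO, and mitochondrially encoded genes took 3.97% to 4.54% of reads in genes against 2.93% to 3.55%. In insR cells these ranges overlapped between DMSO (13.8% to 17.1% and 3.29% to 3.54%) and GSK-LSD1 (13.7% to 15.1% and 2.70% to 3.58%). These values moved with the treatment in WT cells, and their part in the results below was not tested. Of the 9 markers fixed for a myeloid and megakaryoblastic line, PTPRC, CD33, KIT, CD34, GATA1 and ITGA2B were at 39.9 CPM or more in every library, GP9 was at 1.89 to 10.4 CPM, MPO at 0 to 0.916 CPM and GP1BB had 0 reads. Of the 9 markers of T cells, B cells, fibroblasts and epithelium, MS4A1, DCN and KRT19 had 0 reads, CD3E had 3 in all, and the highest was COL1A1 with 4.45 CPM. KDM1A itself lay between 237.5 and 290.4 CPM in WT DMSO and between 213 and 219 CPM in WT GSK-LSD1, lower in every treated library. In the insR libraries it lay between 101 and 111 CPM, and gene counts do not show the insertion.

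Promoter sequence around the start site was taken from RefSeq, build GRCh38.p14, in windows of 300 bases that hold 250 bases before the annotated start site and 50 from it on. Only the first start site listed for a gene was used, and any others were not searched. Windows were found for 41 members and for none of CCT6A, HSF1, HSPA14 and PDIA3. The stretches below run 5′ to 3′ from 250 bases before the start site to its first 10 transcribed bases. They are shown for members among those with the largest decrease in WT cells (HSPE1, whose window overlaps that of HSPD1, HSPA9 and CHORDC1), for the central ER chaperone HSPA5, and for the pair of heat-inducible HSP70 genes that differed between the lines (HSPA1A, HSPA1B). Capitals mark matches, on either strand, to a heat shock element (GAA and TTC units 2 bases apart), to an ER stress element (CCAAT and CCACG 9 bases apart) or to the E-box CACGTG.
HSPE1, chr2:197500129-197500388, plus strand: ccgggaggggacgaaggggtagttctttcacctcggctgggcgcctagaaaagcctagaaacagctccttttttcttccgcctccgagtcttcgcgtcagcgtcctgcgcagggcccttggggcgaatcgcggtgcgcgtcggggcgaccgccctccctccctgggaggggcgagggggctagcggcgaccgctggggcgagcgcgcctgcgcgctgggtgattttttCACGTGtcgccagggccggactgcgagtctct
HSPA9, chr5:138575392-138575651, minus strand: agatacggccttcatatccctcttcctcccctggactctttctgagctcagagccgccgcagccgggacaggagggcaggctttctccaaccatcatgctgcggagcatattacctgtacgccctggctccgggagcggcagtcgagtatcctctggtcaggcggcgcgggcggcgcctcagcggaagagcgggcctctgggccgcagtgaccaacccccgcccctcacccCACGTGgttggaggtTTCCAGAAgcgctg
CHORDC1, chr11:90223040-90223299, minus strand: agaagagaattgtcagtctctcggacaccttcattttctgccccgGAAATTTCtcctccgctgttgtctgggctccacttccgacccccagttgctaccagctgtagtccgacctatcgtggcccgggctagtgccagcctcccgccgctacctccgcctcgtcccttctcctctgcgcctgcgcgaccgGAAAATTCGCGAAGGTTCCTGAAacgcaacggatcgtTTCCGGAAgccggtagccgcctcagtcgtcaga
HSPA5, chr9:125241334-125241593, minus strand: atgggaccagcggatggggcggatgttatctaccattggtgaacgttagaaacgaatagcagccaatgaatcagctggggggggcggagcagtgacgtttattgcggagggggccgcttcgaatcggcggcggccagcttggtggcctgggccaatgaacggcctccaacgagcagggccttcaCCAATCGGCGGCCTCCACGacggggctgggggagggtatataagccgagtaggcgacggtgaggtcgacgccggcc
HSPA1A, chr6:31815293-31815552, plus strand: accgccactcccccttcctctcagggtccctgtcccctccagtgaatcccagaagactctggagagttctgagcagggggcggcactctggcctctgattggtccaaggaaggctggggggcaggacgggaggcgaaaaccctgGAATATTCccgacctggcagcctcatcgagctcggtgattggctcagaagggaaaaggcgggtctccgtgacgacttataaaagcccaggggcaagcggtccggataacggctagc
HSPA1B, chr6:31827488-31827747, plus strand: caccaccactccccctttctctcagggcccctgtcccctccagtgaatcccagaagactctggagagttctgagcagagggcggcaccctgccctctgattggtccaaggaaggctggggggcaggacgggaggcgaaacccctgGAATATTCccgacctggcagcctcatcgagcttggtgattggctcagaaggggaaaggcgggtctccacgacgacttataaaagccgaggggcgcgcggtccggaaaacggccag

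HSPE1 and HSPD1 are transcribed away from each other on chromosome 2, with start sites 105 bases apart, so their windows share 204 bases and the same E-box, which starts 22 bases before the HSPE1 start and 88 bases before that of HSPD1. HSPA9 has an E-box 19 bases before its start. The windows of HSPA1A and HSPA1B were identical at 92.03% of 301 aligned positions, and in both the heat shock element lies in the same stretch, 106 and 105 bases before the start. CHORDC1 holds a run of overlapping heat shock element matches starting 60 bases before its start. A match describes the letters only and shows no binding.

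The first comparison asked how chaperone transcripts responded to GSK-LSD1 in cells with wild-type LSD1. Transcripts of 33 of the 45 members fell, 2 rose and 10 were not called by the test (edgeR quasi-likelihood test over 12864 genes, adjusted p below 0.05). The decrease was largest among mitochondrial chaperones, where HSPE1 was 2.2-fold and HSPD1 2.05-fold lower, and it took in all 8 subunits of the CCT ring and all 5 members of the HSP90 group. The members that rose were HSF1 and HSPB1. Together the 45 genes took 2.01 ± 0.0473% (SD, n = 3) of scaled reads in WT DMSO and 1.44 ± 0.0654% in treated WT cells.

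Against the background, 45.2% of all genes tested were called in this comparison, 22.7% higher and 22.5% lower, while 77.8% of the members were called, 4.44% higher and 73.3% lower. The median log2 fold change was -0.46 over the members and 0.01 over all genes tested. A decrease or increase of at least 1.5-fold was called for 12 of the 45 members, and for 3264 of all 12864 genes tested, a similar share. One of at least 2-fold was called for 2 members and for 1557 of all genes tested, so most changes of the members were modest in size. Summed over all members, the 3 WT DMSO libraries held 19718, 19877 and 20605 CPM and the 3 treated WT libraries 15119, 13855 and 14195 CPM, with no overlap. In bulk RNA, fewer cells of a kind and less RNA per cell cannot be told apart.

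Markers of the line also separated treated from untreated WT libraries. In WT DMSO and after GSK-LSD1, PTPRC was at 419 to 447 and 894 to 989 CPM, CD34 at 279 to 308 and 671 to 713, CD33 at 50.6 to 58.4 and 102 to 130.5 and ITGA2B at 689 to 779 and 1075 to 1295, each higher in every treated library. KIT was at 399.8 to 411 and 246 to 262 CPM, GATA1 at 68.2 to 72.7 and 39.9 to 52.9 and GP9 at 8.75 to 10.4 and 1.89 to 4.28, each lower in every treated library. These are 7 of the 9 markers. MPO, at 0 to 0.357 CPM in WT DMSO and 0.384 to 0.916 after GSK-LSD1, was also higher in every treated library, but near the floor. GP1BB had 0 reads. The sum of all 9 markers was 1957 to 2044 CPM in WT DMSO and 3074 to 3403 after GSK-LSD1. In insR cells the sum was 2102 to 2238 CPM in DMSO and 2133 to 2287 with the drug, and PTPRC (359 to 394 and 395 to 432), CD34 (367 to 372 and 435 to 455) and CD33 (91.4 to 93.2 and 104 to 112) were higher in every treated library. Without the drug CD33, CD34 and KIT (467 to 589 CPM in insR DMSO) were higher and PTPRC lower in every insR than in every WT library. The 9 markers of other cells summed to 1.25 to 2.81 CPM in WT DMSO, 6.62 to 7.56 in treated WT, 5.44 to 7.21 in insR DMSO and 3.87 to 5.42 in treated insR libraries. The part of these markers in the chaperone values was not tested.

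**Figure D1:**
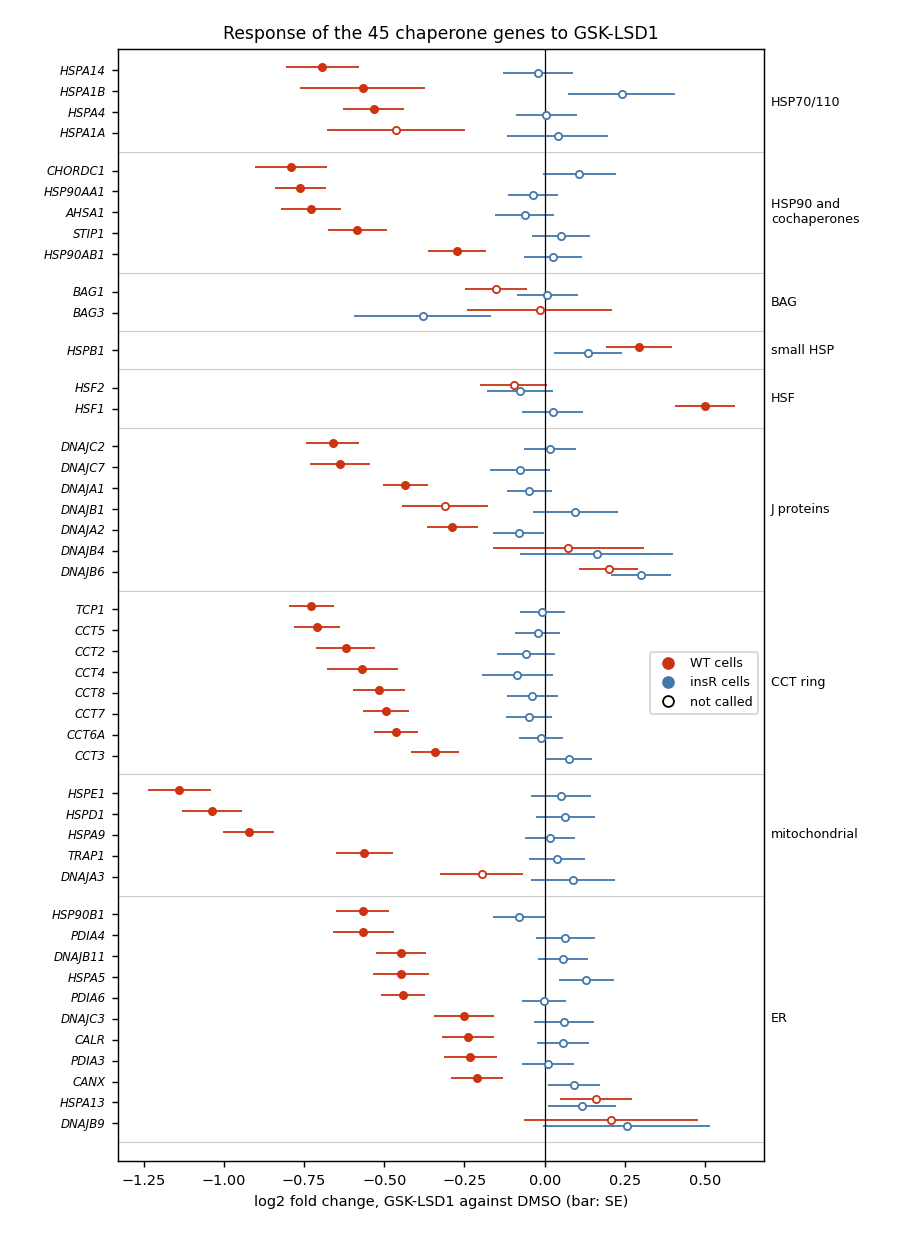
Log2 fold change of each chaperone gene under GSK-LSD1 against DMSO in WT cells (red) and insR cells (blue), sorted within role groups; bars are standard errors and open points were not called. Red points lie left of 0 for 39 of 45 genes, with HSPE1 at -1.14 the lowest, while blue points lie between -0.38 and 0.30.

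Among mitochondrial chaperones, 4 of 5 fell, and the median log2 fold change was -0.92. HSPE1, the lid of the HSP60 chamber, was at 106, 110.5 and 110.2 CPM in the WT DMSO libraries and 43.5, 50.5 and 53.8 after GSK-LSD1, a log2 fold change of -1.14 (SE 0.10, edgeR adjusted p = 1.44e-09). HSPD1, the HSP60 ring itself, was at 1177, 1204 and 1445 CPM and then 698, 544 and 620.5, a change of -1.04 (SE 0.09, edgeR adjusted p = 2.99e-09). Every treated library was below every DMSO library for both genes. HSPA9, the mitochondrial HSP70 that also pulls proteins through the inner membrane, went from 237, 244 and 245 CPM to 129, 131 and 124, a change of -0.92 (SE 0.08, edgeR adjusted p = 1.31e-09). The replicates of HSPA9 were close together in both groups. TRAP1, the mitochondrial HSP90, fell less (-0.56), and DNAJA3, the J protein of the matrix, was not called (-0.20, adjusted p = 0.226). Summed over the 5 genes the level was 1782 ± 166 CPM (SD, n = 3) in WT DMSO and 908 ± 76.7 CPM after treatment.

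The ratio of HSPE1 to HSPD1 did not separate the groups. There were 9.04, 9.18 and 7.62 CPM of HSPE1 per 100 CPM of HSPD1 in WT DMSO and 6.23, 9.29 and 8.66 after GSK-LSD1, and the groups overlapped. In insR cells the ratio was 8.73 ± 0.866 (SD, n = 3) with DMSO and 8.65 ± 1.08 with the drug. The readthrough gene HSPE1-MOB4, which shares the strand of HSPE1, had 0 reads in all 12 libraries. In GENCODE release 29 HSPD1 overlaps HSPE1 on the opposite strand, whereas from the RefSeq start sites given above the genes run apart. The 26 rows named as HSPE1 pseudogenes held 3.03 to 6.93 CPM in sum and 18 named for HSPD1 5.76 to 13.6 CPM, so reads of near-identical copies are uncertain.

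All 8 subunits of the CCT ring fell, with log2 fold changes from -0.73 to -0.34 and a median of -0.54. TCP1, the first subunit described, was at 368, 385 and 380.3 CPM in WT DMSO and 226, 220.2 and 238 after GSK-LSD1, a change of -0.73 (SE 0.07, edgeR adjusted p = 1.03e-08). CCT5 was at 589.9, 594 and 616 CPM and then 363, 355 and 382, a change of -0.71 (SE 0.07, edgeR adjusted p = 1.50e-08). For each of the 8 subunits the treated libraries lay below all DMSO libraries. The share of all genes tested that separated in this way was not counted. The other 6 were CCT2 (-0.62), CCT4 (-0.57), CCT8 (-0.52), CCT7 (-0.49), CCT6A (-0.46) and CCT3 (-0.34). The sum over the ring was 3369 ± 40.6 CPM (SD, n = 3) in WT DMSO and 2297 ± 70.3 CPM after treatment.

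The HSP90 group fell as a whole, 5 of 5, with a median of -0.73. HSP90AA1, the inducible cytosolic HSP90, was at 3113, 3226 and 3246 CPM in WT DMSO and 2057, 1770.0 and 1828 after GSK-LSD1, a log2 fold change of -0.76 (SE 0.08, edgeR adjusted p = 2.83e-08). Its constitutive paralog HSP90AB1 was at 2982, 3098 and 3486 CPM and then 3048, 2351 and 2515, with overlapping libraries and a smaller change of -0.27 (SE 0.09, edgeR adjusted p = 0.0163). The call for HSP90AB1 was lost without WT DMSO replicate 3 (adjusted p = 0.0707), without WT GSK-LSD1 replicate 2 (0.0935) or without WT GSK-LSD1 replicate 3 (0.0750). The level of HSP90AA1 per 100 CPM of HSP90AB1 was 104, 104 and 93.1 in WT DMSO and 67.5, 75.3 and 72.7 in treated WT cells, without overlap. In insR cells it was 108 ± 0.868 (SD, n = 3) in DMSO and 104 ± 5.30 after GSK-LSD1, and those libraries overlapped. The 5 rows named as HSP90AB pseudogenes held 38.0 to 79.8 CPM in sum, so a small part of the paralogs' reads is uncertain.

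All 3 HSP90 cochaperones among the members fell too. CHORDC1, which binds the HSP90 ATPase domain, was at 91.1, 78.5 and 102 CPM in WT DMSO and 60.5, 46.5 and 50.1 after treatment, a change of -0.79 (SE 0.11, edgeR adjusted p = 3.67e-06). AHSA1, the activator of the HSP90 ATPase, was at 249, 218 and 221 CPM and then 147, 141 and 128, a change of -0.73 (SE 0.09, edgeR adjusted p = 8.00e-07). In both genes the treated libraries were below all DMSO libraries. STIP1, which links HSP70 to HSP90, changed by -0.58.

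**Figure D2:**
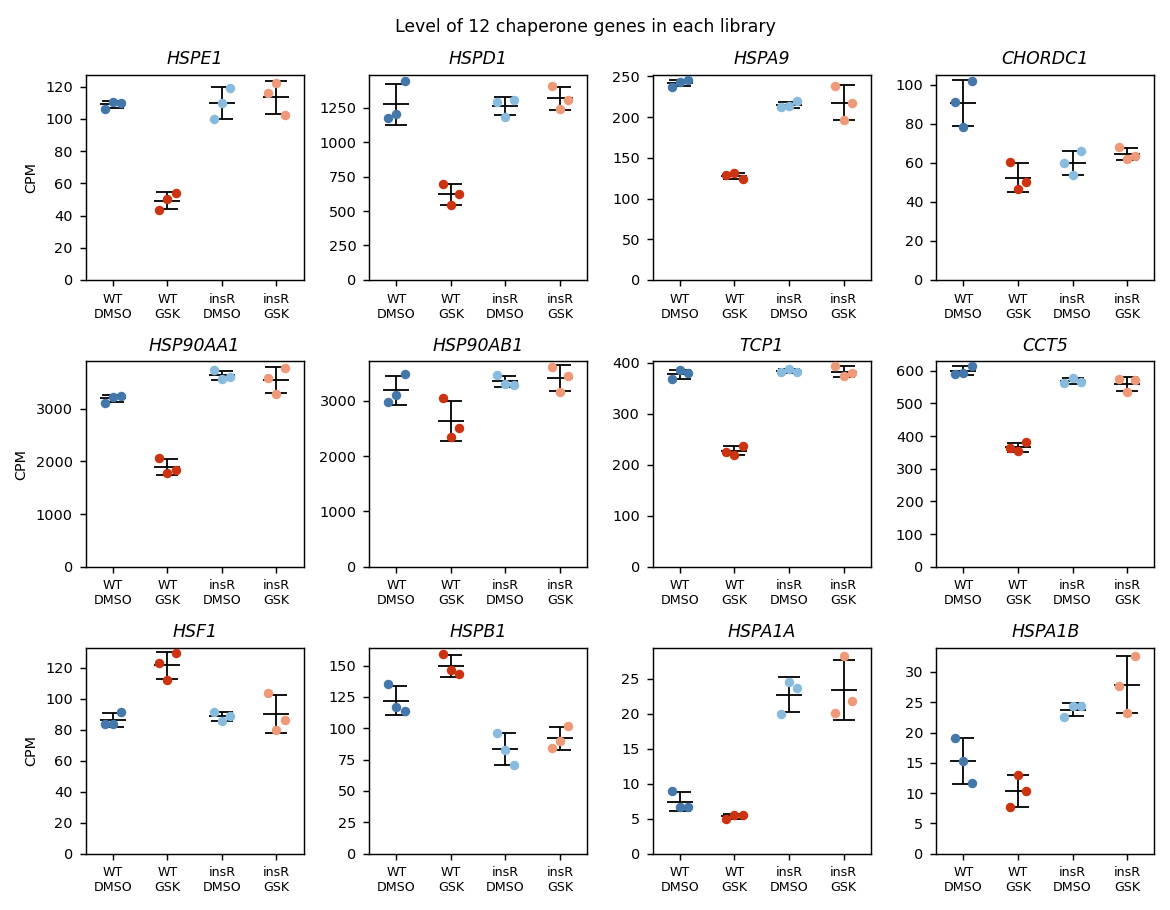
Level (CPM, linear axes from 0) of 12 chaperone genes in each of the 12 libraries; points are libraries and bars the mean and SD of 3. In treated WT cells HSPE1 sits at 43.5 to 53.8 CPM, below every other library, while HSF1 sits at 112 to 129 CPM, above every other library.

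In the HSP70 and HSP110 group, 3 of 4 fell, with a median of -0.55. HSPA14, which works at the ribosome with the J protein DNAJC2, changed by -0.69, and HSPA4, an HSP110 that releases nucleotide from HSP70, by -0.53. The heat-inducible HSPA1A was at 8.95, 6.70 and 6.61 CPM in WT DMSO and 4.92, 5.57 and 5.50 after GSK-LSD1, a change of -0.46 (SE 0.21) that was not called (edgeR adjusted p = 0.0820). Its near-identical neighbor HSPA1B was at 19.1, 15.3 and 11.6 CPM and then 7.75, 13.1 and 10.3, with 1 treated library above the lowest DMSO library, and a change of -0.57 (SE 0.20, edgeR adjusted p = 0.0205). The HSPA1B call was lost without WT DMSO replicate 1 (adjusted p = 0.131), WT GSK-LSD1 replicate 1 (0.0928) or WT GSK-LSD1 replicate 3 (0.0616), and with only the WT groups fitted (0.0509). Since the genes are so alike, how reads split between them is uncertain, and alignments that were not unique are in neither count. The sum of the HSPA1A and HSPA1B levels, which leaves those alignments out, was 22.8 ± 4.99 CPM (SD, n = 3) in WT DMSO. After treatment it was 15.7 ± 2.98 CPM, with overlapping libraries.

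Among the 7 cytosolic and nuclear J proteins, 4 fell and 3 were not called. Those that fell were DNAJC2 (-0.66), DNAJC7 (-0.64), which carries clients between HSP70 and HSP90, and the general HSP70 partners DNAJA1 (-0.43) and DNAJA2 (-0.29). DNAJB1, the classical heat-inducible J protein, was at 93.4, 106 and 148 CPM in WT DMSO and 105, 83.7 and 91.1 after treatment, a change of -0.31 (SE 0.13) that missed the threshold (edgeR adjusted p = 0.0709). Its groups overlapped, with WT DMSO replicate 3 the highest of the DMSO libraries. DNAJB1 was called lower without a filter beyond 1 count (adjusted p = 0.00459), and also without WT DMSO replicate 1 (adjusted p = 0.00591) or WT GSK-LSD1 replicate 1 (0.0430). DNAJB6, which keeps polyglutamine proteins from aggregating, and DNAJB4 had changes of 0.20 (adjusted p = 0.0782) and 0.07 (0.824).

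In the ER, 9 of 11 chaperones fell, with a median of -0.25, and none by 1.5-fold. The largest decreases were those of HSP90B1, the ER form of HSP90 (-0.57), and the disulfide isomerase PDIA4 (-0.56). HSPA5, the ER form of HSP70 also known as BiP, changed by -0.45, its J protein DNAJB11 by -0.45 and the disulfide isomerase PDIA6 by -0.44. Smaller decreases that each lost the call when 1 library was left out were those of DNAJC3, CALR, PDIA3 and CANX. For DNAJC3, an HSPA5 partner (-0.25), the adjusted p was 0.149 without WT DMSO replicate 2 and 0.167 without WT GSK-LSD1 replicate 1. For the lectin chaperone CALR (-0.24) it was 0.0636 without WT DMSO replicate 1 and 0.0901 without WT GSK-LSD1 replicate 3. For PDIA3, the isomerase that works with CALR (-0.23), it was 0.0776 without WT DMSO replicate 3 and 0.108 without WT GSK-LSD1 replicate 2. For the membrane-bound lectin chaperone CANX (-0.21) it was 0.168 without WT DMSO replicate 3, 0.131 without WT GSK-LSD1 replicate 2 and 0.117 without WT GSK-LSD1 replicate 3. With upper-quartile scaling the calls of DNAJC3 (0.0796), CALR (0.0649), PDIA3 (0.0695) and CANX (0.111) were lost too, and with only the WT groups fitted those of DNAJC3 (0.0614) and CANX (0.0643). HSPA13 and DNAJB9 were not called, with values of 0.16 and 0.21.

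**Figure D3:**
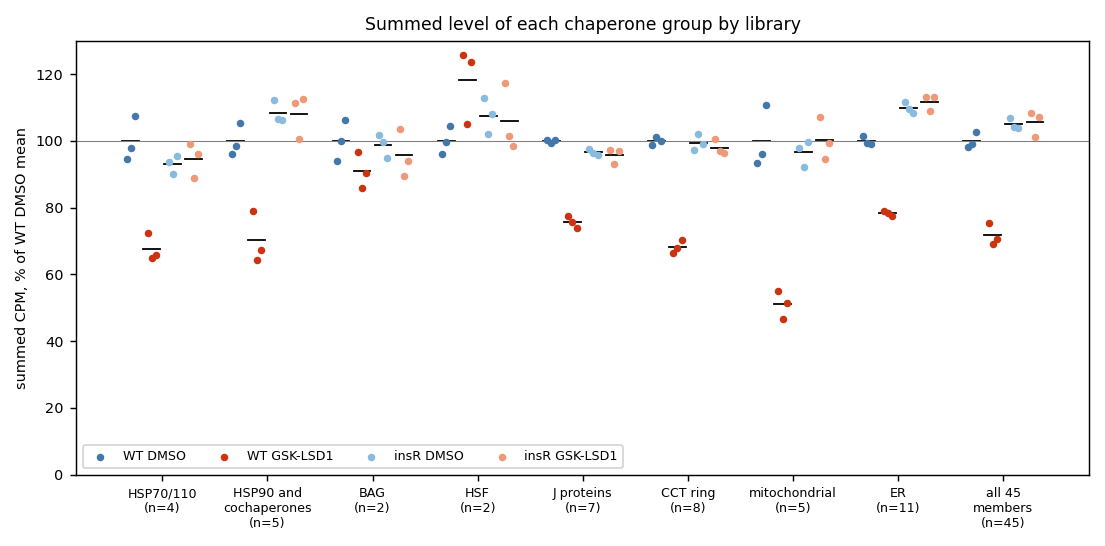
Summed CPM of each role group in each library, as a percentage of the WT DMSO mean (linear axis from 0); points are libraries, horizontal bars means of 3, and a group's sum weighs highly expressed genes most, and HSPB1, alone in its group, is not plotted. Treated WT libraries are the lowest for every group plotted except BAG, where groups overlap, and the heat shock factors, where 2 of 3 treated WT libraries are the highest.

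The transcription factor HSF1 rose. It was at 83.6, 83.3 and 91.3 CPM in the WT DMSO libraries and 123, 112 and 129 after GSK-LSD1, without overlap, a log2 fold change of 0.50 (SE 0.09, edgeR adjusted p = 0.000125). Its relative HSF2 was not called (-0.10, adjusted p = 0.476). HSPB1, a small heat shock protein that holds unfolded proteins without ATP, was at 136, 117 and 114 CPM and then 159, 146 and 143, a change of 0.29 (SE 0.10, edgeR adjusted p = 0.0214). The lowest treated library of HSPB1 was above the highest DMSO library, and the call was lost without WT DMSO replicate 2 (adjusted p = 0.0953), WT DMSO replicate 3 (0.0747) or WT GSK-LSD1 replicate 1 (0.0689), which left 1 member called higher. The exchange factors BAG1 and BAG3 were not called, with values of -0.15 and -0.01. In DMSO BAG3 ranged from 6.61 to 17.0 CPM among the WT libraries, more than any difference between its group means.

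Genes of the same machinery outside the 45 were taken as 5 lists of 92 symbols, of which 82 were tested. In WT cells 37 fell and 9 rose, 45.1% and 11.0% against 22.5% and 22.7% of all genes, with a median of -0.24. Of 15 further mitochondrial folding genes and proteases, 12 fell (80.0%) and none rose. The largest decreases there were in GRPEL1, the exchange factor of HSPA9 (-1.13), and the protease HTRA2 (-0.91). Of 10 further HSP90 cochaperones and small heat shock proteins tested, 6 fell (60.0%) and 1 rose. The largest decreases were in the immunophilins FKBP4 (-0.78) and FKBP5 (-0.78), and the gene that rose was the collagen chaperone SERPINH1 (0.35).

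Of 20 further HSP70, HSP110 and J proteins tested, 7 fell (35.0%) and 4 rose (20.0%). HSPA2 (-1.29) and HSPA8, the constitutive cytosolic HSP70 (-0.79), fell most, and the J proteins DNAJB2 (1.24) and DNAJB12 (0.39) rose most. The DNAJB12 call was lost without WT DMSO replicate 1 (adjusted p = 0.102) or WT GSK-LSD1 replicate 3 (0.165). Of 10 genes of prefoldin, which hands unfolded actin and tubulin to the CCT ring, and its partners, 4 fell (40.0%), led by VBP1 (-0.48) and PFDN4 (-0.34). The 27 tested genes of ER folding and the unfolded protein response gave 8 lower and 4 higher with a median of 0.00, and the 44.4% called was close to the 45.2% of all genes. PDIA5 (-0.83) and MANF (-0.79) fell most, and ERO1B (1.51) and ERO1A (0.89), the oxidases that recharge disulfide isomerases, rose most. The MANF call was lost without WT DMSO replicate 1 (adjusted p = 0.0566) or WT DMSO replicate 2 (0.0541), and with only the WT groups fitted (0.0672).

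The next comparison asked for the same response in insR cells. None of the 45 members was called by edgeR, DESeq2 or limma-voom, and 1, DNAJB6, had an unadjusted p below 0.05 in edgeR (log2 fold change 0.30, adjusted p = 0.238). The members' log2 fold changes lay between -0.38 (BAG3) and 0.30 (DNAJB6), with a median of 0.03, and 28 were above 0 and 17 below. BAG3 was at 18.4, 18.3 and 21.3 CPM in insR DMSO and 13.05, 16.0 and 15.5 with the drug. DNAJB6 was at 71.1, 56.6 and 68.0 CPM and then 82.8, 79.0 and 79.9. The libraries did not overlap for BAG3 and DNAJB6, neither of which was called, and overlapped for all other members. How many of all genes tested had libraries without overlap was not counted, so these genes are not set apart by it. The background was low as well, since 0.505% of all genes tested were called, 0.241% higher and 0.264% lower. These were 65 genes, and leaving out 1 library gave 29 (insR DMSO replicate 1), 34 (insR DMSO replicate 2), 28 (insR GSK-LSD1 replicate 1 or 2), 40 (insR GSK-LSD1 replicate 3) or 45 (insR DMSO replicate 3). None of the 82 further genes of the lists was called by edgeR, and 6 had an unadjusted p below 0.05 there. Over all 12864 genes tested, 996 had an unadjusted p below 0.05 in edgeR. Limma-voom called 0 of the 82 further genes and DESeq2 0 of the 80 with an adjusted p.

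HSPE1 was at 99.8, 109.9 and 119.5 CPM in the insR DMSO libraries and 116, 122 and 102 after GSK-LSD1, a log2 fold change of 0.05 (SE 0.09). HSPD1 was at 1291, 1184 and 1303 CPM and then 1406, 1237 and 1308, and HSPA9 at 213, 214 and 219.7 CPM and then 239, 196 and 218. The groups overlapped for each of these genes. For the CCT ring the log2 fold changes in insR cells were -0.09 (CCT4) to 0.07 (CCT3), with TCP1 at 383, 389 and 382 CPM in DMSO and 394, 374 and 379.7 after treatment. CCT5 was at 562, 578 and 567 CPM and then 575, 535 and 571. HSP90AA1 was at 3734, 3561 and 3592 CPM in DMSO and 3572, 3276 and 3776 with the drug, again with overlap.

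The cochaperone CHORDC1 was at 59.9, 53.8 and 65.9 CPM in insR DMSO and 68.0, 61.8 and 63.5 after GSK-LSD1, and AHSA1 at 286, 257 and 237 and then 219.5, 256 and 272. The genes that rose in WT cells did not pass the test either. HSF1 was at 91.4, 85.3 and 88.8 CPM in insR DMSO and 104, 79.9 and 86.4 with the drug, and HSPB1 at 96.4, 82.3 and 71.0 and then 84.3, 89.8 and 102. Among heat-inducible genes DNAJB1 was at 117, 118 and 135 CPM and then 142, 125 and 128. The sum over all 45 members was 20868 to 21459 CPM without the drug and 20286 to 21744 CPM with it, so those groups overlapped.

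Whether the responses differed was tested as an interaction, the insR response minus the WT response, which shares all 12 libraries with the values above and is not independent of them. The response of 27 members was more positive in insR than in WT cells, that of HSF1 was more negative, and 17 members were not called. These are 60% and 2.22% of the members, 62.2% in all, against 25.1% of all genes tested, 13.3% more positive and 11.8% more negative. The median difference was 0.48 over the members and 0.00 over all genes. All 8 CCT subunits, 4 of 5 mitochondrial chaperones, 4 of 5 of the HSP90 group, 3 of 4 of the HSP70 group, 5 of 11 ER chaperones and 3 of 7 J proteins were among the 27.

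The largest differences were in mitochondrial chaperones, 1.19 (SE 0.14, edgeR adjusted p = 6.05e-07) for HSPE1, 1.10 (adjusted p = 1.10e-06) for HSPD1 and 0.94 (1.02e-06) for HSPA9. They were followed by CHORDC1 with 0.90 (0.000192), HSPA1B with 0.81 (0.0236), HSP90AA1 with 0.73 (3.12e-05), TCP1 with 0.72 (8.58e-06) and CCT5 with 0.69 (1.58e-05). HSF1 had a difference of -0.47 (SE 0.13, edgeR adjusted p = 0.0108). HSPA1B was at 22.6, 24.4 and 24.4 CPM in insR DMSO and 27.7, 23.2 and 32.7 with the drug, while its WT values were lower after treatment on average. Its difference was not called without WT DMSO replicate 1 (adjusted p = 0.0876), WT GSK-LSD1 replicate 1 (0.0576), WT GSK-LSD1 replicate 3 (0.0534), insR DMSO replicate 1 (0.0512), nor without insR GSK-LSD1 replicate 3 (0.0716). That of CCT4 (0.48) was not called without WT DMSO replicate 1 or 2, WT GSK-LSD1 replicate 1, insR DMSO replicate 1, or without insR GSK-LSD1 replicate 1 or 2, with adjusted p from 0.0505 to 0.0770.

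Members that fell in WT cells but whose difference was not called were HSP90AB1 (0.30, adjusted p = 0.0898), CANX (0.30, 0.0580), CALR (0.30, 0.0652), DNAJC3 (0.31, 0.0839), PDIA3 (0.24, 0.129) and DNAJA2 (0.21, 0.190), so by the edgeR fit the responses of WT and insR cells were not shown to differ for these. Limma-voom called CANX (adjusted p = 0.0484) and CALR (0.0404). Without a filter beyond 1 count CALR (0.0380), HSP90AB1 (0.0271) and DNAJB1 (0.0204) were called. Leaving out 1 library brought 5 members past the threshold. HSP90AB1 was called without WT GSK-LSD1 replicate 1 (adjusted p = 0.00812), DNAJB1 without WT DMSO replicate 1 (0.0222) and DNAJC3 without WT DMSO replicate 3 (0.0430). CANX was called without WT GSK-LSD1 replicate 1 (0.0222) or without insR GSK-LSD1 replicate 2 (0.04998), and CALR without WT GSK-LSD1 replicate 2 (0.0476) or insR DMSO replicate 1 (0.0319). The heat-inducible HSPA1A (0.50, 0.175) and HSPB1 (-0.16, 0.467) were not called, nor was HSPA13 (-0.04).

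In the wider lists the difference was called more positive for 25 of 82 genes (30.5%, against 13.3% of all genes) and more negative for 4 (4.88%, against 11.8%). Mitochondrial folding genes and proteases gave 8 of 15 more positive, with GRPEL2 at 0.92 and GRPEL1 at 0.90. The GRPEL2 call was lost in turn without WT DMSO replicate 1 or 2, WT GSK-LSD1 replicate 1 or 2, insR DMSO replicate 1 or 3 and insR GSK-LSD1 replicate 2 or 3, with adjusted p of 0.0560 to 0.152, and DESeq2 did not call it (adjusted p = 0.0555). HSP70, HSP110 and J proteins gave 7 of 20, with HSPA2 at 1.27 and HSPH1 at 0.98, and DNAJB2 was more negative (-0.97). HSP90 cochaperones gave 5 of 10, led by FKBP4 (0.80) and FKBP5 (0.71), with SERPINH1 at -0.46 in the other direction. The ER list gave 4 of 27 (14.8%), near the share of all genes, led by SDF2L1 (0.80) and PDIA5 (0.77), and the oxidases ERO1B (-1.35) and ERO1A (-0.88) were more negative. Of the 10 prefoldin genes and partners, only PFDN4 was called (0.36).

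The last comparison set insR against WT cells without the drug. It shares the WT DMSO libraries with the WT response. Here the members were split, with 7 higher and 6 lower in insR cells and a median log2 fold change of 0.01, equal to the 0.01 of all genes tested. The 13 calls are 28.9% of the members, near the 30.1% of all genes, and by direction 15.6% were higher and 13.3% lower, against 14.5% and 15.6% of all genes. The members that differed most were the heat-inducible HSP70 genes and HSPA13 on the higher side and CHORDC1 and HSPB1 on the lower side, and none of the CCT ring or the mitochondrial chaperones was called. Of the lower members, HSPB1, DNAJB6 and DNAJC2 lie on chromosome 7. HSPA4 lies on chromosome 5, CHORDC1 on chromosome 11 and DNAJC3 on chromosome 13. Whether lower genes share their decrease with the chromosome region around them was not tested, so it cannot be read as particular to chaperones.

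HSPA1A was at 8.95, 6.70 and 6.61 CPM in WT DMSO and 19.9, 24.6 and 23.7 in insR DMSO, a log2 fold change of 1.61 (SE 0.18, edgeR adjusted p = 1.13e-07). HSPA1B was at 19.1, 15.3 and 11.6 CPM and 22.6, 24.4 and 24.4, a change of 0.63 (SE 0.18, edgeR adjusted p = 0.00827). For both genes every insR library was above every WT library, and their sum was 46.5 ± 3.54 CPM (SD, n = 3) in insR DMSO against 22.8 ± 4.99 CPM in WT DMSO. That sum leaves out alignments that were not unique. The HSPA1B call was lost without WT DMSO replicate 3 (adjusted p = 0.0524). BAG3, the stress-induced exchange factor that steers HSP70 clients to autophagy, was at 17.0, 13.9 and 6.61 CPM in WT and 18.4, 18.3 and 21.3 in insR DMSO, a change of 0.61 (SE 0.22, edgeR adjusted p = 0.0354). Without WT DMSO replicate 3, the lowest library, the BAG3 change was 0.33 (adjusted p = 0.188), and the call was also lost without insR DMSO replicate 1 (0.0599), insR DMSO replicate 2 (0.0643) or insR DMSO replicate 3 (0.108), and with only the DMSO groups fitted (0.0959).

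DNAJB1 and HSPB1 are heat-inducible as well. DNAJB1 was at 93.4, 106 and 148 CPM in WT DMSO and 117, 118 and 135 in insR DMSO, with overlap and a change of 0.09 (adjusted p = 0.658), and it was called higher only without WT DMSO replicate 3 (adjusted p = 0.0328). HSPB1 was at 136, 117 and 114 CPM in WT and 96.4, 82.3 and 71.0 in insR cells, a change of -0.54 (SE 0.10, edgeR adjusted p = 0.000218). HSF1 (0.04) and HSF2 (0.18) were not called.

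Of ER chaperones 4 were higher and 1 lower in insR cells. HSPA13, a divergent HSP70 of microsomes, was at 34.9, 39.0 and 33.4 CPM in WT DMSO and 60.0, 68.6 and 54.8 in insR DMSO, a change of 0.77 (SE 0.11, edgeR adjusted p = 4.83e-06). HSP90B1 was at 1079, 1069 and 886 CPM and 1189, 1342 and 1381 (0.37), HSPA5 at 395, 409 and 487 and 535, 489 and 570.1 (0.31), and CALR at 1527, 1446 and 1407 and 1922, 1788 and 1589 (0.27). Each of these was higher in all insR libraries than in all WT libraries. DNAJC3 went the other way, at 152, 167 and 139.7 CPM in WT and 118, 114 and 127 in insR cells (-0.35). The HSPA5 call was lost without WT DMSO replicate 1 (adjusted p = 0.0675) or WT DMSO replicate 2 (0.0597), and that of CALR without WT DMSO replicate 2 (0.0506) or insR DMSO replicate 1 (0.0855).

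In the cytosol, CHORDC1 was lower in insR cells, at 91.1, 78.5 and 102 CPM in WT DMSO and 59.9, 53.8 and 65.9 in insR DMSO, a change of -0.59 (SE 0.11, edgeR adjusted p = 0.000160). DNAJB6 was at 93.4, 96.7 and 87.0 and 71.1, 56.6 and 68.0 CPM (-0.50), HSPA4 at 191, 215 and 237 and 168, 159 and 174 (-0.36), and DNAJC2 at 118, 128 and 118 and 103, 96.3 and 105 (-0.26). The libraries of the lines did not overlap for these 4 genes, and the share of all genes tested without overlap was not counted. The DNAJC2 call was lost without WT DMSO replicate 2 (adjusted p = 0.0801) or insR DMSO replicate 2 (0.0866), and without a filter beyond 1 count (0.0674), and limma-voom called HSP90AA1 higher (0.18, adjusted p = 0.0358). For the CCT ring the differences were -0.12 to 0.12, and for the mitochondrial chaperones -0.23 to 0.01.

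**Figure D4:**
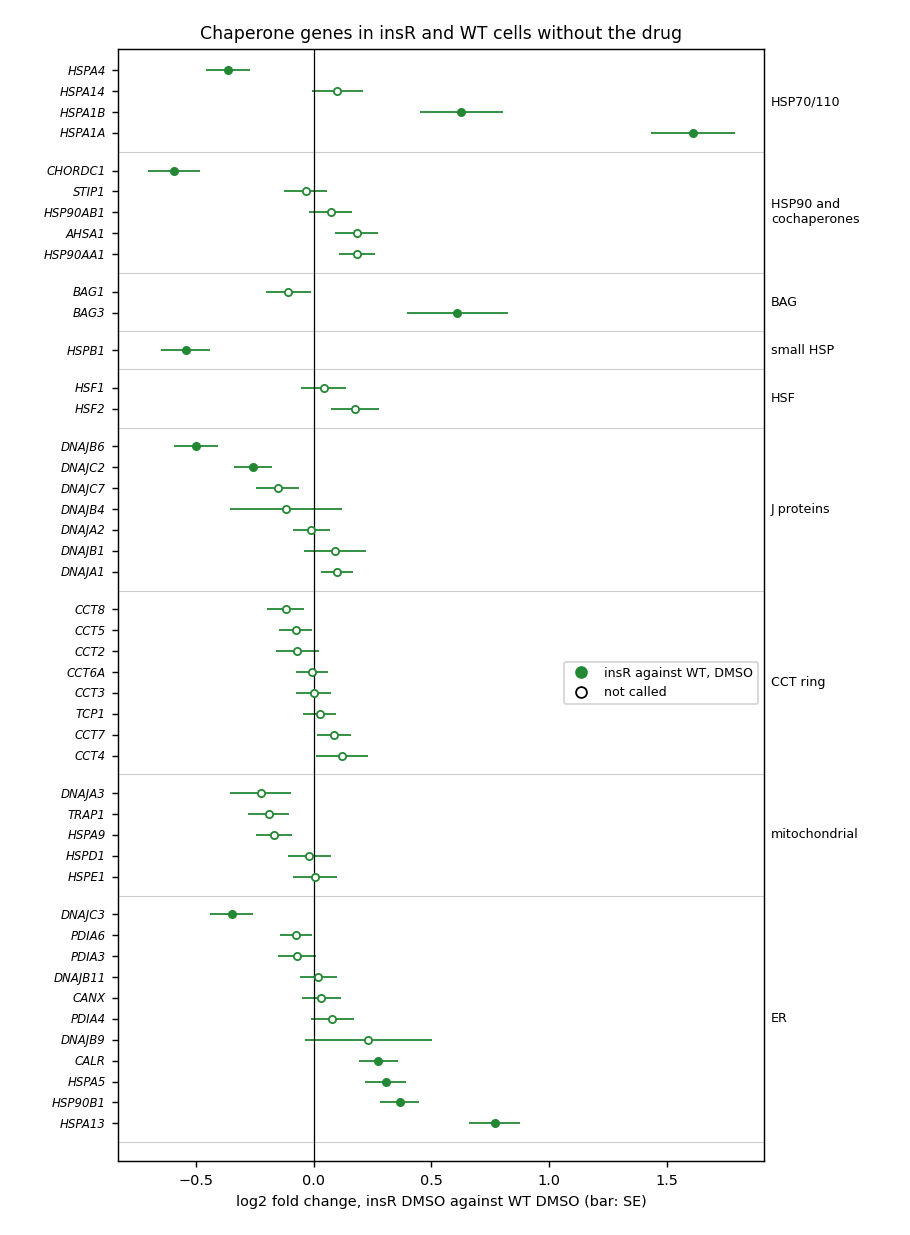
Log2 fold change of each chaperone gene in insR DMSO against WT DMSO, sorted within role groups; bars are standard errors and open points were not called. HSPA1A at 1.61 stands farthest from 0, and all CCT subunits and mitochondrial chaperones are open points between -0.23 and 0.12.

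Of the 82 further genes, 18 were higher and 12 lower in insR DMSO, 22.0% and 14.6% against 14.5% and 15.6% of all genes. HSPA2 (0.98) and STUB1, the ubiquitin ligase that binds HSP70 (0.59), were higher, and HSPH1, an HSP110, was lower (-1.18). The HSP90 cochaperones SUGT1 (-1.14) and FKBP5 (-0.29) were lower and SERPINH1 (0.80) was higher. Among mitochondrial genes GRPEL2 (0.72) and PPIF (0.60) were higher, and DNAJC15 (-1.19) and CLPX (-0.39) lower. In the ER list ERO1B was higher (0.75) and DERL2 (-1.03) and CRELD2 (-0.68) lower, and in the prefoldin list URI1 was lower (-0.26). The CLPX call was lost without insR DMSO replicate 1 (adjusted p = 0.0522), and that of GRPEL2 without WT DMSO replicate 3 (0.0721) or insR DMSO replicate 2 (0.0649). For the lower genes named here too, a decrease shared with the chromosome region was not tested.

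The promoter windows were then read beside the WT response. Of the 41 members with a window, 30 fell, 1 rose and 10 were not called. A heat shock element of 3 units was found in 0.487% of all 27305 windows and in those of CHORDC1, DNAJA1 and DNAJB6, of which CHORDC1 and DNAJA1 fell and DNAJB6 was not called. With 2 units, which every match of 3 also contains, it was in 13.7% of all windows and in 9 of the 41 member windows (22.0%), those of CCT4, CHORDC1, DNAJA1, DNAJB6, HSPA1A, HSPA1B, HSPA9, HSPB1 and TCP1. Of these 9 genes 6 fell, HSPB1 rose and 2 were not called, and the share that fell was near that of all 41. The median log2 fold change in WT cells was -0.43 over the 3 members with 3 units and -0.48 over the rest, and -0.57 over the 9 with 2 units and -0.45 over the rest. The ER stress element was in 0.081% of all windows and in those of CALR, CANX, HSP90B1 and HSPA5, each of which fell, with a median of -0.34 against -0.49 over the rest. When 1 library was left out, the calls of HSPA1B, HSPB1, CALR and CANX were lost, as given above. The E-box was in 7.44% of all windows and in 6 member windows (14.6%), those of HSPE1, HSPD1, HSPA9, HSP90B1, DNAJB9 and HSF2. The first 4 of these fell and DNAJB9 and HSF2 were not called. The median was -0.74 over these 6 members and -0.45 over the 35 without an E-box, and HSPE1 and HSPD1 count there with a single shared site. A window without a match says only that these letters are not in it. Those of the inducible HSP90AA1 and of DNAJB1 held none of these elements, and other start sites of a gene were not searched. Members counted without an element may thus hold it at another start site.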

How the data were processed

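The authors deposited whole-number counts of reads per gene, without normalization, for each of 12 libraries. Per the labels' protocols these were QuantSeq 3' FWD libraries of polyA RNA. The submitters' processing notes name the build hg19 and the tools HTSeq 0.9.1, STAR 2.6.0c, bcl2fastq 2.2 and DESeq2. The strand setting and the annotation release are not given in the sources used. Without strand, reads of the 26 members that a gene on the opposite strand overlaps (GENCODE release 29, used for names and overlaps only) cannot be told from that gene's. Library sizes left out entries that name no gene: reads outside genes (13.7% to 19.5% of uniquely aligned reads), ambiguous reads (1.68% to 1.86%) and alignments that were not unique (57.9% to 62.6% of all entries). A second deposited table, of normalized values, was not used.

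Counts were tested in edgeR 4.0.16 (R 4.3.3) by its robust quasi-likelihood test (TMM scaling, filterByExpr, all 12 libraries in 4 group means). The Benjamini-Hochberg adjustment ran over all 12864 genes tested, and genes were called below 0.05. No test was run on the member list. Replicate pairs differed by more than sampling noise. The members, lists and naming rule were chosen with earlier results of these data known. Values in every library are given for the called members of largest change in each comparison and for HSPA1A, HSPA1B, DNAJB1 and HSPB1, and the largest called changes are named in each wider list. Of the 92 symbols of the wider lists, HSPB11 had no match, and HSPA6, HSPA12A, DNAJA4, HSPB6, HSPB8, CRYAB, HSF4, TXNDC5 and DERL3 did not pass the filter. Alternatives were the test of DESeq2 1.42.0, limma-voom (limma 3.58.1), scaling by upper quartiles or by DESeq2 size factors, looser and stricter count filters, a replicate block, fits restricted to the groups of a comparison, and leaving out 1 library at a time. The fits were tested on simulated data. Floors cover counting error only. Promoter windows are from RefSeq GRCh38.p14, and no coordinate of another build was used. Plots were made with matplotlib 3.10.9 in Python 3.11.15.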

Additional observations from a re-analysis of the deposited data

Results flagged for a closer look

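The response to GSK-LSD1 differed between insR and WT cells for 28 members by edgeR's interaction test, 62.2% of the members against 25.1% of all genes tested. The values in parentheses are that difference on the log2 scale, insR minus WT, from 3 libraries in each of 4 groups. Mitochondrial chaperones in this set were HSPE1 (1.19), HSPD1 (1.10), HSPA9 (0.94), TRAP1 (0.60). CCT subunits were TCP1 (0.72), CCT5 (0.69), CCT2 (0.56), CCT4 (0.48), CCT8 (0.48), CCT6A (0.45), CCT7 (0.44), CCT3 (0.42). Among HSP90 and its cochaperones they were CHORDC1 (0.90), HSP90AA1 (0.73), AHSA1 (0.67), STIP1 (0.64), and among HSP70, HSP110 and J proteins HSPA1B (0.81), DNAJC2 (0.68), HSPA14 (0.67), DNAJC7 (0.56), HSPA4 (0.54), DNAJA1 (0.39). In the ER they were PDIA4 (0.63), HSPA5 (0.58), DNAJB11 (0.51), HSP90B1 (0.49), PDIA6 (0.44). The difference of HSF1 (-0.47) had the opposite sign. The calls of HSPA1B and CCT4 were each lost in several fits with 1 library left out, as given above.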

How the results depend on the processing

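Over every alternative run, no called member changed direction. In the WT response, 28 of the 35 called members kept their call under all 14 alternatives, in the difference between responses 26 of 28 under 19, and in DMSO 8 of 13 under 14. The number of members called higher in WT cells, 2, was 3 with upper-quartile scaling, which called DNAJB6 (adjusted p = 0.0301), and 1 to 2 with 1 library left out. In insR cells the genes called, 65, were 118 without a filter beyond 1 count and 28 to 45 with 1 library left out, and the members called stayed at 0. Leaving out insR DMSO replicate 1, or in turn insR GSK-LSD1 replicates 2 and 3, moved the share of these calls that were higher from 47.7% to between 62.5% and 69.0%. No scaling moved the median of all genes by more than 0.05. Replicate numbers did not pair the libraries: correlations of same-numbered deviations were -0.33, 0.36 and -0.02 in WT cells, 0.01, 0.16 and -0.30 in insR cells and -0.13, 0.16 and -0.12 in DMSO. Those of differently numbered libraries reached from -0.58 to 0.52 in WT cells, -0.31 to 0.31 in insR cells and -0.34 to 0.32 in DMSO. Some libraries of different groups thus shared deviations, which a block by replicate number does not model. With the replicate block 5818, 60, 3198 and 3897 genes were called in the 4 comparisons, and 33 members were lower and 2 higher in WT cells, 28 differed positively and 1 negatively between responses, where the block added CANX (adjusted p = 0.0493) and changed no other member's call, and 7 were higher and 6 lower in DMSO. For members below about 20 CPM, such as HSPA1A, BAG3, DNAJB4 and DNAJB9, depth limits the precision.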
